A study of Mus musculus with 12 samples.

Results

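Genes of outer segment phagocytosis were followed: the receptors and ligands with which retinal pigment epithelium (RPE) cells bind and take up shed photoreceptor outer segments. They are the receptor tyrosine kinases Mertk, Axl and Tyro3 (the TAM family), their ligands Gas6 and Pros1, the integrin subunits Itgav and Itgb5, the integrin ligand Mfge8 and the scavenger receptor Cd36. The members were chosen by gene name, and all 9 were found, each on 1 row, among 21930 genes of the count table. RNA sequencing had been run on 12 libraries from male, wild-type C57BL/6J mice, 3 mice in each of 4 groups. The AL+PBS mice fed ad libitum and received a single intraperitoneal injection of PBS, and the AL+NaIO3 mice had the same diet and a single injection of sodium iodate, an oxidant toxic to the RPE, at 25 mg/kg. The IF+PBS and IF+NaIO3 mice received the same injections on intermittent fasting, 24 h without food alternating with 24 h of feeding, begun at 8 weeks of age, run for 12 weeks and kept up after the injection. Tissue for molecular assays was taken 7 days after the injection. The study asked whether fasting lessens the damage done by NaIO3 to the RPE and photoreceptors. Acute NaIO3 injury models a sudden loss of the RPE, and the mice were of 1 sex and strain.

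Photoreceptors renew their outer segments every day, and the RPE engulfs the shed tips. In this process the αvβ5 integrin, made of the products of Itgav and Itgb5 and bridged to the outer segment by MFG-E8, holds the tip at the apical surface, MERTK bound to GAS6 or protein S (Pros1) triggers its engulfment, and CD36 acts in internalisation. Macrophages and microglia use Mertk and Axl in the same way to clear dying cells, and endothelial cells carry Cd36, so in a whole-tissue library these transcripts come from several cell types. Fewer cells of a type and less RNA per cell cannot be told apart in such libraries.

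The labels name the tissue as a complex of RPE, choroid and sclera, and the methods name eye cups. Photoreceptor genes were nonetheless abundant in every library: 12 photoreceptor markers together held 19659 to 65287 CPM (counts per 1000000 of the library, scaled with trimmed mean of M values factors), so the neural retina was present. Total counts ran from 26364665 to 43046950 per library. One library, AL+NaIO3 replicate 3, stood apart. Its 12 photoreceptor markers summed to 19659 CPM, the lowest of the 12 libraries, and its 6 stromal markers to 1287 CPM against 64.9 to 204 elsewhere. Its 5 pigment genes (Pmel, Tyr, Tyrp1, Dct, Mlana), which choroidal melanocytes express as well as the RPE, summed to 1986 CPM against 119 to 322 in the other libraries. It was the highest library for 26.1% of 15970 genes, and for 6 of the 9 members. Values without it are given beside the results that it moves most.

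The members lie on 5 chromosomes (GRCm38, as the count table gives the gene spans). Mertk (chr2:128698956-128802894), Tyro3 (chr2:119797733-119818104) and Itgav (chr2:83724397-83806916) share chromosome 2, Axl (chr7:25757273-25788705) and Mfge8 (chr7:79133768-79149060) share chromosome 7, and Pros1 (chr16:62854307-62929346) and Itgb5 (chr16:33829665-33949338) share chromosome 16. Gas6 lies at chr8:13465374-13494490 and Cd36 at chr5:17781690-17888801.

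The promoters of Pros1, Axl and Mertk are shown. Pros1 and Axl were the members higher in every AL+NaIO3 library, and Mertk is the engulfment receptor that Axl was compared with. The 250 bases upstream of the start site listed for each gene in a RefSeq promoter table (GRCm38.p6, 1 start per member) were taken, 5′ to 3′ on the gene's strand. The listed start need not be the outermost: 191 bases of the Axl window, and the whole windows of Tyro3, Itgav and Cd36, lie inside the RefSeq span of the gene. The capitals mark matches to GGGCGG (GC box) or to TTCNNNGAA (the STAT motif) on either strand. Pros1 lies on the plus strand and the bases shown are chr16:62854057-62854306, Axl lies on the minus strand (chr7:25788734-25788983) and Mertk on the plus strand (chr2:128698665-128698914).
Pros1: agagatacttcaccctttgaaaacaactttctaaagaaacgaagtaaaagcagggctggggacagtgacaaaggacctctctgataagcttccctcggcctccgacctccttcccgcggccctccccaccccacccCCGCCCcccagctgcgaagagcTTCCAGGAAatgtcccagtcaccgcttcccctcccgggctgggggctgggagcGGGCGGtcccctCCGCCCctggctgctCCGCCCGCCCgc
Axl: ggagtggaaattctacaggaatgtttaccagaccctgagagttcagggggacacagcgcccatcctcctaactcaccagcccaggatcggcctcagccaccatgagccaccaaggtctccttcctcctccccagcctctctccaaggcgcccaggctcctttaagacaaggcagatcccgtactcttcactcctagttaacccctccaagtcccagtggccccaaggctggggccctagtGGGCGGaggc
Mertk: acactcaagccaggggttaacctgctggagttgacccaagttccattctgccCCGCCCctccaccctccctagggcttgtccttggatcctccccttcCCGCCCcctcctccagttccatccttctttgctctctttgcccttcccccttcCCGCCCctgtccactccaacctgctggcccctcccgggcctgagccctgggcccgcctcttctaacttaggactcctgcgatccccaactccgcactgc
The Pros1 promoter held 5 GC boxes and 1 STAT match. The Axl promoter held 1 GC box and the Mertk promoter 3, with no STAT match in either. Among 32851 RefSeq promoter windows of the same length, 32.7% held a GC box and 7.02% a STAT match. Of the 9 members, 8 held a GC box (Itgav did not), and none held an AP-1 match (TGANTCA, in 6.75% of windows), an E-box (CACGTG, 6.02%) or an M-box core (CATGTG, 12.3%). A match describes the letters in this window and is not evidence of binding.

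Lengths differ between genes, so levels were ordered on the deposited FPKM values. In the AL+PBS mice the secreted ligands Mfge8 and Gas6 were by far the most abundant members. Mfge8 stood at 129 ± 4.77 FPKM (SD, n = 3) and Gas6 at 74.3 ± 3.74. The integrin subunits followed, Itgb5 at 13.7 ± 0.309 and Itgav at 8.71 ± 0.613. Tyro3 (5.94 ± 0.642), Axl (4.05 ± 0.394), Pros1 (3.25 ± 0.528), Mertk (2.35 ± 0.398) and Cd36 (1.28 ± 0.278) came last, and in this group the ranges of neighbours in the order did not overlap. Mertk was thus the least abundant of the 3 receptor tyrosine kinases per length. The same leading order of Mfge8, Gas6, Itgb5 and Itgav was seen in all 4 groups. Below them the order shifted: in the AL+NaIO3 mice Axl (11.2 ± 9.08) and Pros1 (9.17 ± 4.87) stood above Tyro3 (6.95 ± 1.57), although from Itgb5 downwards the ranges of all neighbours overlapped in that group. This order rested on AL+NaIO3 replicate 3. Without it Tyro3 had the highest mean of the 3 again, at 6.58 FPKM against 6.37 for Pros1 and 5.98 for Axl (n = 2).

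**Figure D1:**
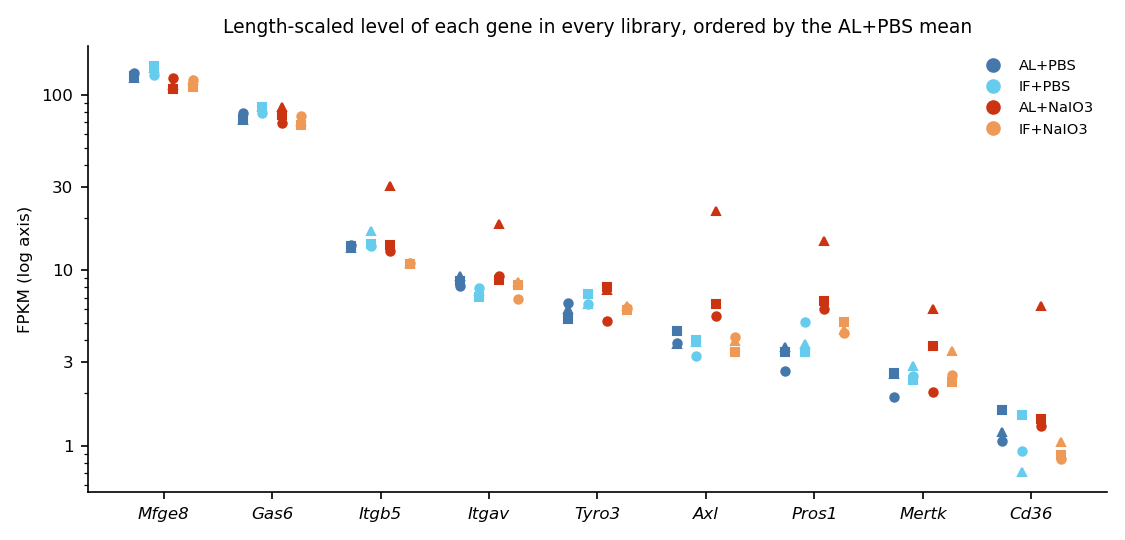
Deposited FPKM of each gene on a log axis, 1 point per library, with the 4 groups side by side in colour and the replicate number as the symbol (circle, 1; square, 2; triangle, 3). Mfge8 and Gas6 lie at 67.5 FPKM or more in every library, and the triangle of AL+NaIO3 replicate 3 lies far above its group for Axl, Pros1, Cd36, Itgb5 and Itgav.

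NaIO3 in ad libitum fed mice was compared with PBS to ask how the injury alone changed these genes. Pros1 and Axl were higher in all 3 AL+NaIO3 libraries than in any AL+PBS library, while the levels of Gas6 and Tyro3 lay close to the controls. No member passed the threshold of the quasi-likelihood test (edgeR, Benjamini-Hochberg adjusted p under 0.05 over 15612 genes and a fold of at least 1.5). Only 12 genes did so in the whole table, 0.0769% of those tested, 8 higher and 4 lower. Before adjustment, 2 of the 9 members had p under 0.05, where 10.2% of all genes did. The groups did not overlap for the same 2 members, against 18.3% of all genes. The median log2 fold change of the members was 0.37, beside 0.01 for all genes, and without AL+NaIO3 replicate 3 it was 0.04.

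Pros1 encodes protein S, an anticoagulant that also serves as a ligand of MERTK and TYRO3. It measured 10.7, 13.8 and 14.7 CPM in the AL+PBS libraries and 25.7, 25.1 and 51.2 CPM in the AL+NaIO3 libraries. All 3 injured mice lay above all 3 controls, and replicates 1 and 2 were 1.97-fold and 1.93-fold above the control mean. The fold change was 2.63 (log2 1.40 ± 0.30, SE; 95% interval 0.70 to 2.09), with an adjusted p of 0.242 (edgeR), and Pros1 ranked 118 by p among the genes tested. Without AL+NaIO3 replicate 3 the log2 value was 0.96 with an adjusted p of 0.0543. The call differed between fits: DESeq2 on the 6 libraries gave an adjusted p of 0.00108, and edgeR with all 12 libraries in 1 fit gave 0.0282, both past the threshold.

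Axl encodes the TAM receptor of macrophages and stressed cells, which binds GAS6. Its CPM values were 19.5, 23.3 and 19.4 in the AL+PBS mice and 28.7, 31.3 and 95.7 in the AL+NaIO3 mice. The groups did not overlap, but replicate 3 alone was 4.61-fold above the control mean, where replicates 1 and 2 were 1.38-fold and 1.51-fold above it. The fold change was 2.53 (log2 1.34 ± 0.44, SE; adjusted p = 0.361, edgeR). Without replicate 3 the log2 value fell to 0.53 (adjusted p = 0.186), and DESeq2 on all 6 libraries gave an adjusted p of 0.0429. Macrophage and microglia markers were higher in the same libraries: 11 of 12 had an unadjusted p under 0.05, all upward, and their sum was 128 to 365 CPM in AL+NaIO3 against 56.0 to 64.8 in AL+PBS. Without replicate 3 the same number was higher and 4 passed the adjusted threshold, C1qb, C1qc, Cd68 and Ptprc. None of those markers was at 0 throughout, Aif1 alone being absent from 1 library. Their part in the Axl and Pros1 values was not tested.

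Mertk, the receptor required for outer segment engulfment, measured 9.89, 13.7 and 12.8 CPM in AL+PBS and 10.04, 17.9 and 27.0 CPM in AL+NaIO3. One injured mouse lay among the controls and the groups overlapped. The log2 fold change was 0.61 ± 0.34 (SE; 95% interval -0.18 to 1.40, adjusted p = 0.581, edgeR), and 0.20 without replicate 3. Tyro3, the TAM receptor that is abundant in neurons, ranged from 25.7 to 30.9 CPM in AL+PBS and from 25.9 to 36.0 CPM in AL+NaIO3, a log2 difference of 0.14 (95% interval -0.23 to 0.52). Gas6 lay between 222 and 243 CPM in AL+PBS and between 223 and 228 CPM in AL+NaIO3, with a log2 fold change of -0.02 (95% interval -0.28 to 0.24). Gas6 overlaps Tmem255b on chromosome 8, which had a mean of 82.4 counts per library against at least 6266 for Gas6. Of the 2 TAM ligands, Pros1 was thus higher in each AL+NaIO3 library and Gas6 lay within the control range. The difference between the genes was not itself tested.

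The integrin arm gave values that rested on a single library. Itgb5, the subunit that pairs with αv at the RPE apical surface, measured 54.6, 55.0 and 49.7 CPM in AL+PBS and 54.7, 51.6 and 95.1 CPM in AL+NaIO3. Itgav measured 68.5, 74.3 and 78.9 CPM in AL+PBS and 82.1, 70.3 and 131 CPM in AL+NaIO3. Replicate 3 was the high library in both cases, and the other injured mice lay in or beside the control range. The log2 fold changes were 0.35 for Itgb5 and 0.37 for Itgav with all libraries, and 0.00 and 0.04 without replicate 3. Mfge8 was 294 to 316 CPM in AL+PBS and 231 to 316 CPM in AL+NaIO3 (log2 -0.21, 95% interval -0.56 to 0.14, and -0.13 without replicate 3). Cd36, the scavenger receptor, measured 4.39, 5.97 and 4.70 CPM in AL+PBS and 5.52, 4.59 and 19.96 CPM in AL+NaIO3. Its log2 fold change of 1.02 (adjusted p = 0.569, edgeR) became 0.01 without replicate 3. Endothelial markers summed to 609 CPM in that library, against 262 to 360 CPM in the others. Adipocyte markers, another source of Cd36, summed to at most 4.73 CPM in any library, with Lep at 0 in 11 of 12. In AL+NaIO3 replicate 3 the macrophage and microglia markers summed to 365 CPM, against 49.8 to 168 CPM in the other libraries, and the stromal markers to 1287 CPM. The part of these cell types in the Cd36 value was not tested.

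**Figure D2:**
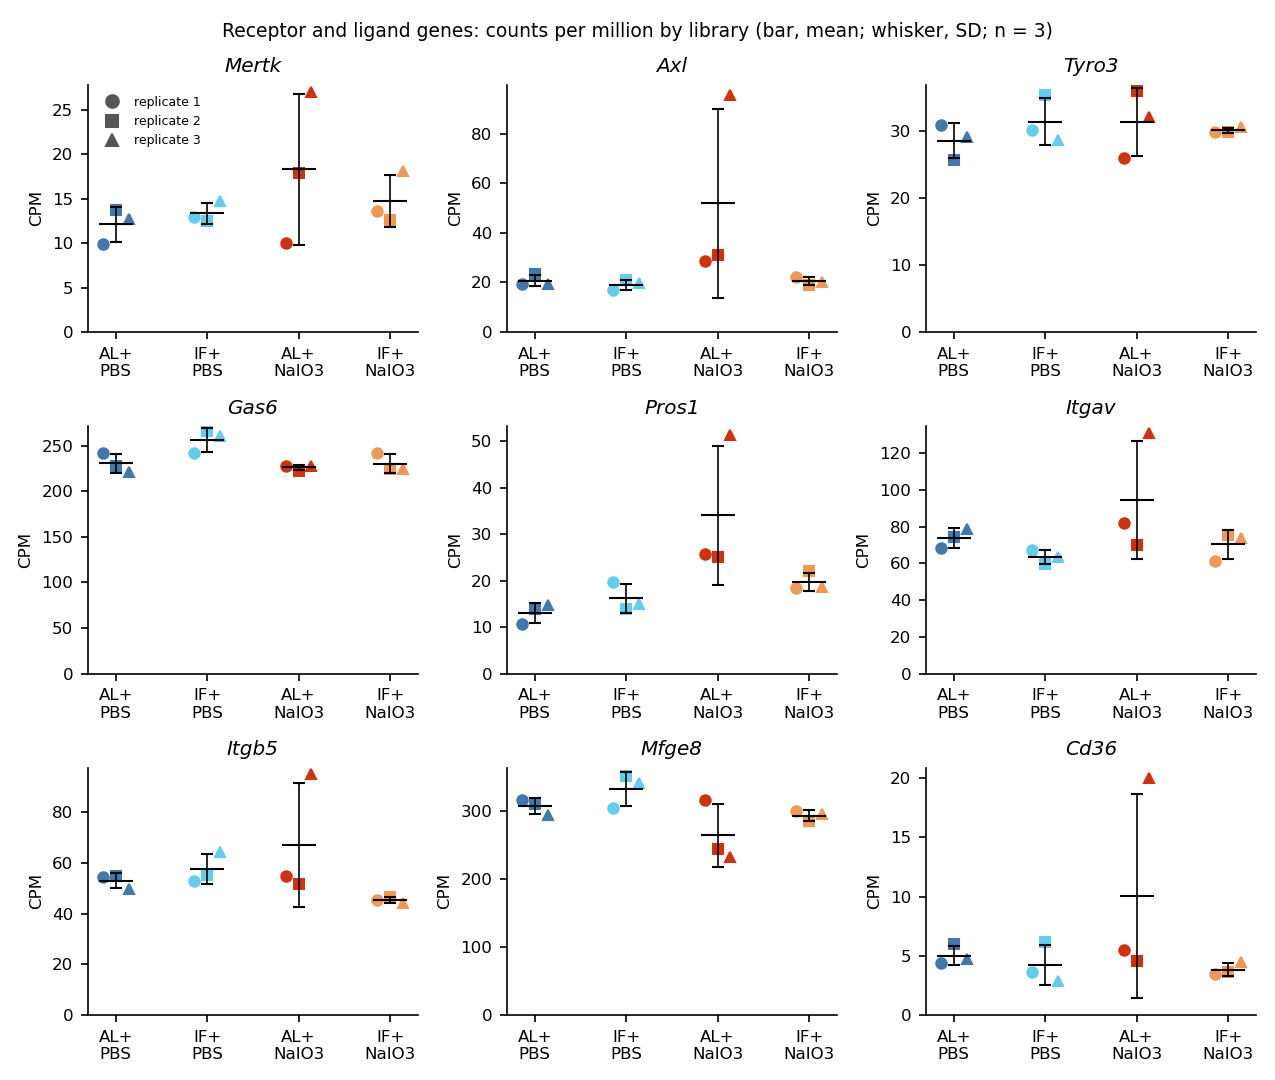
CPM of each gene by library, 1 panel per gene with the vertical axis from 0, where symbols are replicates, the horizontal bar is the group mean and the whisker the SD (n = 3). Pros1 is raised in every AL+NaIO3 library, at 25.1 CPM or more against at most 14.7 CPM in AL+PBS, whereas for Cd36, Itgb5 and Itgav the triangle of replicate 3 is the one AL+NaIO3 library far above AL+PBS. For Itgb5 the 3 IF+NaIO3 libraries are the lowest of the 12.

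The injured mice on the 2 diets were compared next, to ask whether fasting before and after NaIO3 changed the same genes. Axl, Pros1, Itgb5 and Cd36 were lower in all 3 IF+NaIO3 libraries than in any AL+NaIO3 library. None passed the adjusted threshold, which 6 of 15648 genes met (0.0383%), all of them lower. Unadjusted p was under 0.05 for those 4 members, beside 11.7% of all genes, and non-overlap was found for the same 4, beside 18.9% of all genes. The median log2 fold change of the 9 was -0.44 against -0.01 for all genes, and -0.13 without AL+NaIO3 replicate 3. This comparison shares its AL+NaIO3 libraries with the one above, so a high AL+NaIO3 value gives an upward difference in one and a downward difference in the other.

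Axl was 22.2, 19.0 and 20.3 CPM in the IF+NaIO3 mice, overlapping the 19.4 to 23.3 CPM of the AL+PBS mice and below the 28.7 CPM of the lowest AL+NaIO3 mouse. Its log2 fold change against AL+NaIO3 was -1.36 ± 0.43 (SE; adjusted p = 0.324, edgeR), and -0.56 (adjusted p = 0.198) without AL+NaIO3 replicate 3. DESeq2 called it, with an adjusted p of 0.0274. The macrophage and microglia markers summed to 54.9 to 68.0 CPM in IF+NaIO3, and 11 of 12 were lower than in AL+NaIO3 at an unadjusted p under 0.05.

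Pros1 was 18.4, 21.9 and 18.7 CPM in IF+NaIO3. These values lay between those of the AL+PBS mice and those of the AL+NaIO3 mice and overlapped neither, while the IF+PBS mice reached 19.7 CPM. The log2 fold change against AL+NaIO3 was -0.81 ± 0.28 (SE; adjusted p = 0.356, edgeR), and -0.38 (adjusted p = 0.448) without AL+NaIO3 replicate 3. Itgb5 was 45.3, 46.7 and 44.2 CPM in IF+NaIO3, the lowest values of the 12 libraries, for a log2 fold change of -0.58 ± 0.23 (SE; adjusted p = 0.396, edgeR). Without replicate 3 it was -0.24. Cd36 was 3.47, 3.61 and 4.44 CPM, just below the lowest AL+NaIO3 value of 4.59 CPM, and its log2 fold change of -1.41 became -0.41 without that library. Markers of other cell types moved between the same groups. All 6 stromal markers were lower in IF+NaIO3 at an unadjusted p under 0.05, with sums of 115 to 135 CPM against 98.8 to 1287 CPM in AL+NaIO3, and 1 of 6 without AL+NaIO3 replicate 3. Endothelial markers summed to 262 to 315 CPM against 338 to 609 CPM, with 1 of 9 lower, also without that library. Of the RPE markers, Slc16a8, Rpe65, Ttr and Rgr were higher and the 5 pigment genes lower, and without that library 6 of the 12 were higher and 1 lower. The part of these cell types in the Pros1, Itgb5 and Cd36 values was not tested.

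The other members overlapped between the diets after NaIO3. Mertk was 13.6, 12.6 and 18.1 CPM in IF+NaIO3, with a log2 fold change of -0.33 (95% interval -1.13 to 0.46) that turned to 0.07 without AL+NaIO3 replicate 3. The log2 fold changes were -0.44 for Itgav (adjusted p = 0.495, edgeR), -0.07 for Tyro3, 0.01 for Gas6 and 0.14 for Mfge8. Without AL+NaIO3 replicate 3 they were -0.13 for Itgav, -0.05 for Tyro3, 0.02 for Gas6 and 0.06 for Mfge8.

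**Figure D3:**
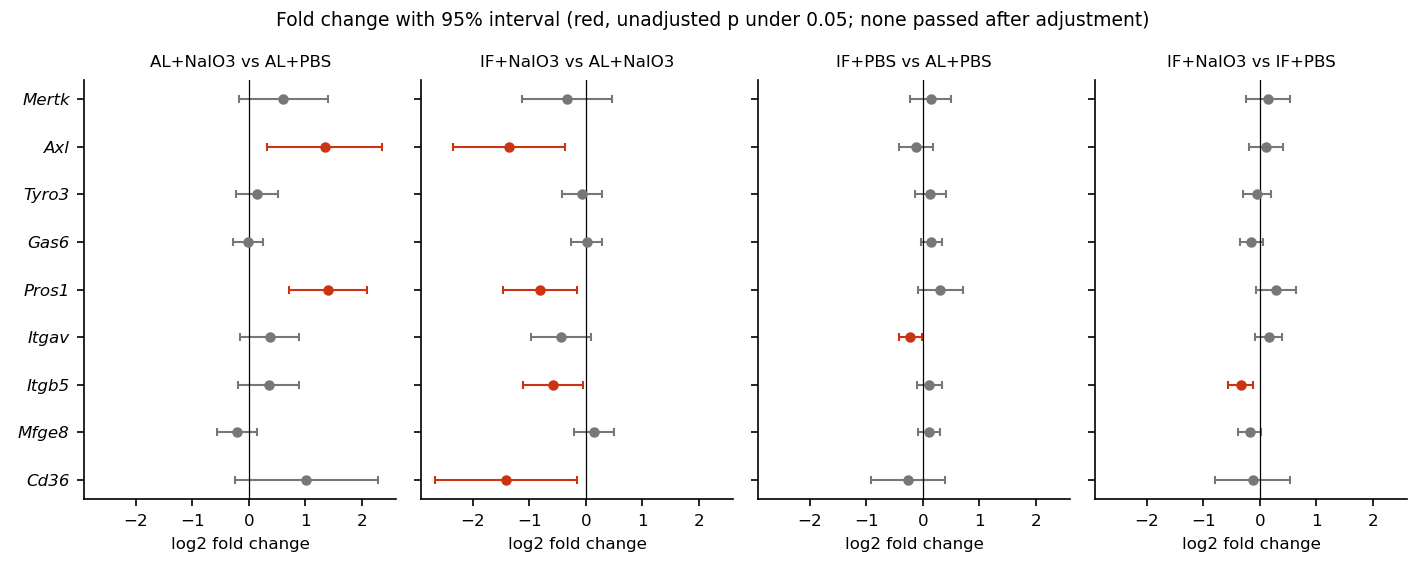
Log2 fold change of each gene (point) with its 95% interval (whisker) in the 4 comparisons, red where the unadjusted p was under 0.05. The intervals are widest where AL+NaIO3 libraries enter, and Pros1 and Axl lie above 0 in the first panel and below 0 in the second.

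**Figure D4:**
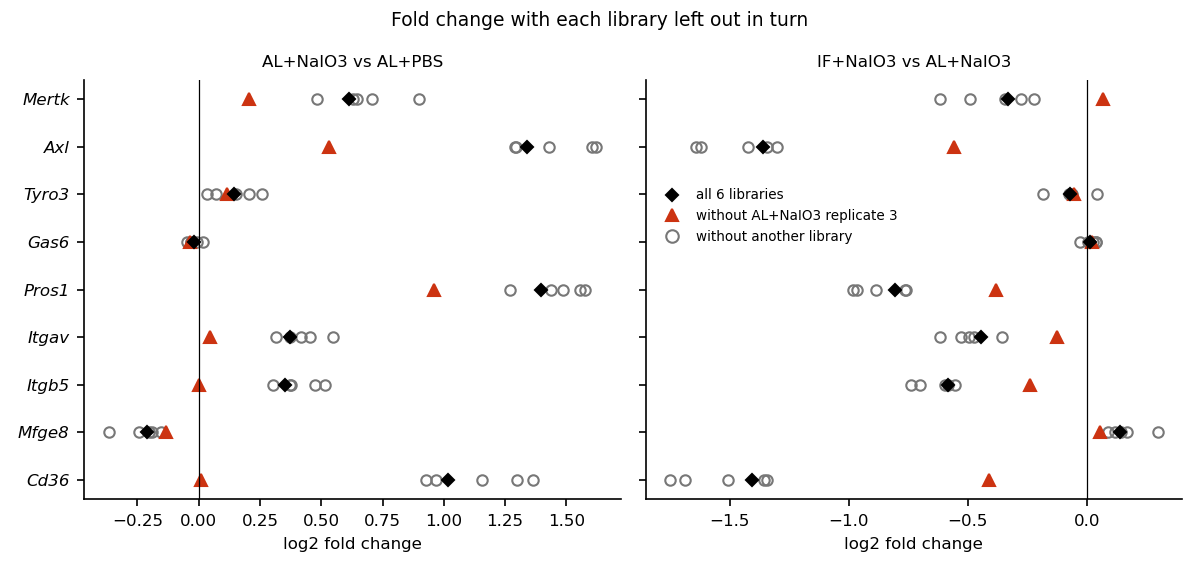
Log2 fold change of each gene with all 6 libraries (diamond), without AL+NaIO3 replicate 3 (triangle) and without each other library in turn (open circle). Without that replicate Pros1 keeps a value of 0.96 against AL+PBS, Axl 0.53, and Cd36 and Itgb5 lie at about 0.

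The uninjured groups and the fasted groups were compared to ask what the diet did on its own and what NaIO3 did under it. Without injury, the members other than Itgav overlapped between IF+PBS and AL+PBS. No gene of 15361 was called (0%), 2623 had an unadjusted p under 0.05 (17.1%), and DESeq2 called 167 genes, none of them a member. Itgav was the single member with an unadjusted p under 0.05 and the single one without overlap, against 21.9% of all genes without overlap. It measured 67.1, 59.5 and 63.6 CPM in IF+PBS against a lowest AL+PBS value of 68.5 CPM, a log2 fold change of -0.22 ± 0.09 (SE; adjusted p = 0.269, edgeR). Marker sums of several cell types also differed in the same IF+PBS libraries, in both directions. The 6 stromal markers summed to 64.9 to 109 CPM in IF+PBS against 133 to 204 CPM in AL+PBS, with 5 of 6 lower at an unadjusted p under 0.05. The 6 skeletal muscle markers summed to 16.6 to 71.3 CPM against 91.9 to 202 CPM, and all 6 were lower. The 6 Müller cell markers summed to 2696 to 2842 CPM against 3049 to 3468 CPM. Glul weighs most in that sum, reaching 120379 counts in a library, with Vim next at 12238. Of the 6, 3 were lower at that p, among them the water channel Aqp4 (log2 -0.56, adjusted p = 0.153, edgeR). Photoreceptor markers summed to 50243 to 55428 CPM against 56164 to 59226 CPM, with 4 of 12 lower and 2 higher, and endothelial markers to 271 to 281 CPM against 286 to 299 CPM, with 1 of 9 lower. Lens markers summed to 1.09 to 1.49 CPM against 3.94 to 180 CPM. The 12 RPE markers went the other way, summing to 1997 to 2584 CPM in IF+PBS against 1751 to 1967 CPM in AL+PBS, and without the pigment genes to 1795 to 2298 CPM against 1512 to 1701 CPM. Of the 12, Lrat, Rdh5, Slc16a8, Ttr and Rgr were higher at an unadjusted p under 0.05, while the pigment genes Tyr and Tyrp1 were lower. The part of these cell types in the Itgav value was not tested. Pros1 measured 19.7, 13.9 and 15.0 CPM in IF+PBS, overlapping AL+PBS, with a log2 difference of 0.31 (95% interval -0.09 to 0.71). Without IF+PBS replicate 1 the Pros1 difference was 0.14. Cd36 had a log2 difference of -0.26 (95% interval -0.91 to 0.39), and -0.63 without IF+PBS replicate 2.

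NaIO3 under fasting likewise gave no call among 15305 genes (0%), with 2326 at an unadjusted p under 0.05 (15.2%) and 80 called by DESeq2, none a member. Of the 9 members 2, Itgb5 and Mfge8, were lower in all IF+NaIO3 than in all IF+PBS libraries. This share is near the 20.9% of all genes that did not overlap in this comparison. Only 1 member, Itgb5, had an unadjusted p under 0.05. Itgb5 stood at 53.1, 55.4 and 64.4 CPM in IF+PBS, and its log2 fold change was -0.34 ± 0.10 (SE; adjusted p = 0.220, edgeR). Mfge8 was 304, 350 and 341 CPM in IF+PBS and 300, 284 and 294 CPM in IF+NaIO3, a log2 fold change of -0.18 (adjusted p = 0.381, edgeR). Axl differed by 0.11 on the log2 scale (95% interval -0.19 to 0.41) and Pros1 by 0.29 (95% interval -0.08 to 0.65). With 1 library left out the values ran from 0.02 to 0.18 for Axl and from 0.18 to 0.45 for Pros1. RPE markers were lower in the same mice: 9 of 12 had an unadjusted p under 0.05, all downward, and the sum was 837 to 1791 CPM in IF+NaIO3 against 1997 to 2584 CPM in IF+PBS. Photoreceptor markers went the other way, with 5 of 12 higher and none lower at that p. Stromal markers summed to 115 to 135 CPM in IF+NaIO3 against 64.9 to 109 CPM in IF+PBS, without overlap. The part of these cell types in the Itgb5 and Mfge8 values was not tested.

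Whether NaIO3 acted differently under the 2 diets was tested with an interaction term over all 12 libraries. No member passed, where 5 of 15970 genes did (0.0313%). The unadjusted p was under 0.05 for 3 members, beside 12% of all genes. Pros1 had an interaction of -1.10 ± 0.36 on the log2 scale (SE; adjusted p = 0.306, edgeR), so the NaIO3 difference was smaller under fasting. Axl had -1.22 (adjusted p = 0.374) and Itgb5 -0.68 (adjusted p = 0.363). Without AL+NaIO3 replicate 3 the values were -0.68 for Pros1, -0.43 for Axl and -0.35 for Itgb5, each again with an unadjusted p under 0.05.

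Since the RPE itself is the target of NaIO3, Mertk was also set against the RPE markers within each library, which does not depend on the scaling between libraries. In AL+NaIO3 against AL+PBS, 6 of the 12 RPE markers were lower at an unadjusted p under 0.05 and 6 had a log2 fold change above 0. The latter, none of them past that p, were the 5 pigment genes and Best1, which had at most 53 counts in a library. Slc16a8, the basolateral lactate transporter of the RPE, fell in AL+NaIO3 (log2 -1.02 ± 0.11, SE, adjusted p = 0.0392, edgeR). Rpe65, the visual cycle isomerase, read 113, 103 and 143 CPM in AL+PBS and 51.3, 39.6 and 54.6 CPM in AL+NaIO3. Without AL+NaIO3 replicate 3, 6 of the 12 passed the threshold, all lower: Rpe65, Lrat, Rdh5, Rgr, Ttr and Slc16a8. The log2 ratio of Mertk counts to the summed RPE markers was -7.56 to -7.00 in AL+PBS, -7.46 to -7.27 in IF+PBS, -6.68 to -5.49 in AL+NaIO3 and -7.04 to -6.06 in IF+NaIO3. It was higher after NaIO3 on both diets, by 1.02 in ad libitum fed mice (1.23 without AL+NaIO3 replicate 3) and by 0.90 in fasted mice, without overlap. With 3 mice against 3 a two-sided exact permutation test cannot go below p = 0.1, and both differences reached that limit. Adjusted over the 4 comparisons, no ratio can pass. With the 5 pigment genes left out of the sum, the differences were 1.66 and 0.94, again without overlap. Between the injured groups the ratio overlapped, with a difference of -0.23, or -0.92 without the pigment genes and -0.44 without AL+NaIO3 replicate 3. The 7 markers that remained summed to 618 to 781 CPM in AL+NaIO3 against 1512 to 1701 CPM in AL+PBS. The Mertk values of those 2 groups overlapped. Mertk also overlapped between IF+PBS (12.5 to 14.7 CPM) and IF+NaIO3 (12.6 to 18.1 CPM). Abundant genes weigh most in the sum of the 7: Ttr reached 38255 and Rgr 21035 counts in a library, with Rdh5 next at 5379. The cell type that carried Mertk was not measured.

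The log2 ratio of Axl to Mertk counts compared the receptor of inflamed tissue with that of outer segment uptake. It was 0.98, 0.77 and 0.60 in AL+PBS, 1.52, 0.80 and 1.82 in AL+NaIO3, 0.37, 0.74 and 0.41 in IF+PBS, and 0.70, 0.59 and 0.17 in IF+NaIO3. Axl counts exceeded Mertk counts in every library. The IF+NaIO3 mice lay below all AL+NaIO3 mice, with a difference of -0.89 (p = 0.1 by exact permutation, again the limit), whereas AL+NaIO3 and AL+PBS overlapped (difference 0.60, exact permutation p = 0.2). Without AL+NaIO3 replicate 3 the differences were -0.67 and 0.38.

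Members were then related to the summed markers of a cell type across libraries on log2 CPM, in 4 pairs with 100000 permutations and Benjamini-Hochberg adjustment over the 4. For Axl the 3 AL+NaIO3 libraries formed a cluster of their own on the macrophage axis, so no value over the raw levels of all libraries is given. With each group centred on its mean, which removes the differences between groups, Pearson's r was 0.93 (permutation p = 0.00028, adjusted 0.00112) and Spearman's rho 0.87 (permutation p = 0.00055, adjusted 0.0022). The centred values without AL+NaIO3 replicate 3 gave r = 0.51 (permutation p = 0.111, adjusted 0.443) and rho = 0.46 (permutation p = 0.154), so the centred relation rests on that library. Within the 9 libraries of the other groups, a choice made after seeing the data, r was 0.77 (permutation p = 0.0145, adjusted 0.0582) and rho 0.67 (permutation p = 0.0582, adjusted 0.0776). Cd36 and the endothelial markers gave r = 0.89 over 12 libraries (permutation p = 0.00699, adjusted 0.014) and rho = 0.70 (permutation p = 0.0136, adjusted 0.0272). Kdr and Flt1 weigh most in the endothelial sum, reaching 13627 and 4702 counts in a library, with Vwf next at 1050. Without the 2 libraries farthest from the median endothelial sum, AL+NaIO3 replicates 2 and 3, r was 0.54 (permutation p = 0.109, adjusted 0.118), so the relation by Pearson's r rests on those libraries, while rho was 0.66 (permutation p = 0.0439, adjusted 0.0876). Itgb5 and the RPE markers gave r = 0.53 (permutation p = 0.0691, adjusted 0.0921) and rho = 0.62 (permutation p = 0.0349, adjusted 0.0466). Without the 2 farthest libraries r was 0.56 (permutation p = 0.112) and rho 0.61 (permutation p = 0.0657, adjusted 0.0876), neither past the threshold. With the pigment genes left out of the RPE sum, r was -0.12 for Itgb5 (rho = 0.27) and -0.29 for Mertk (rho = -0.16). Mertk and the RPE markers gave r = 0.24 (permutation p = 0.46) and rho = 0.12 (permutation p = 0.715), and r = 0.53 (permutation p = 0.118) without the 2 farthest libraries. All points of a pair share a library, its depth and its dissection.

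**Figure D5:**
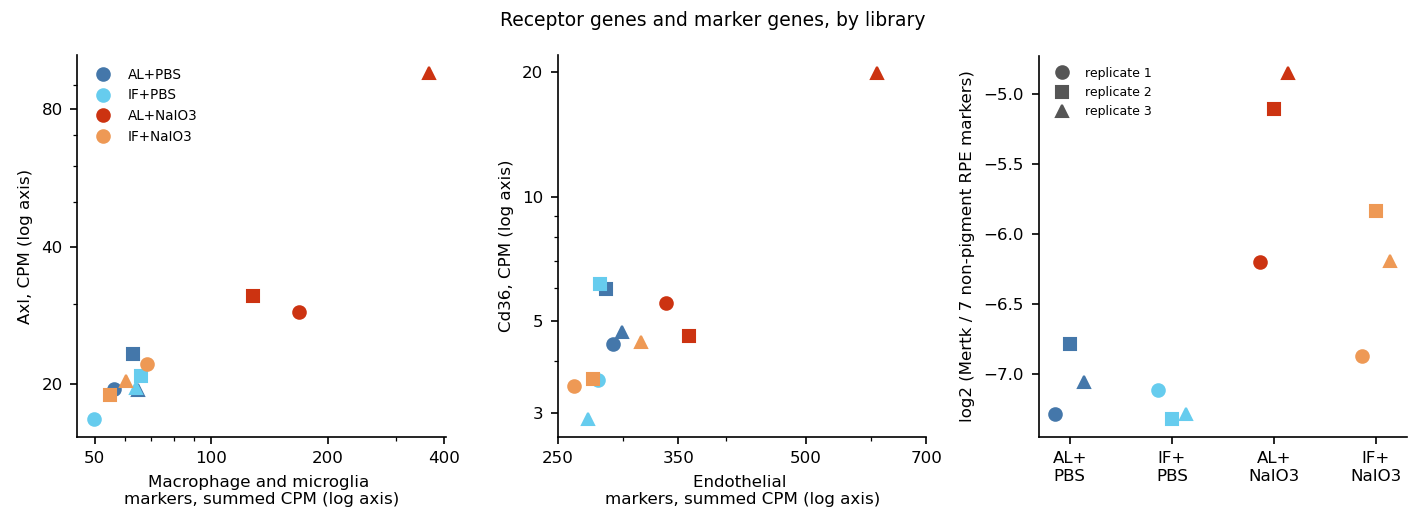
Axl against the summed macrophage and microglia markers and Cd36 against the summed endothelial markers (CPM, both axes log, 1 point per library, colour for group, symbol for replicate), and the log2 ratio of Mertk to the 7 RPE markers other than the pigment genes by group. The 3 AL+NaIO3 libraries lie apart at 128 CPM or more on the macrophage axis, a single AL+NaIO3 library lies apart on the endothelial axis, and the Mertk ratio is higher in both NaIO3 groups than in their PBS groups.

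The rest of the uptake pathway was read from 4 lists of 43 genes. In AL+NaIO3 against AL+PBS no gene of these lists was called, and 10.2% of all genes had an unadjusted p under 0.05 (12.2% without AL+NaIO3 replicate 3). Among 7 other ligands and bridging proteins, 2 were higher and 1 was lower at an unadjusted p under 0.05, with a median log2 fold change of 1.40 that became -0.10 without AL+NaIO3 replicate 3, when 2 were higher and none lower. C1qa, a complement component that tags dying cells, led the list at 10.7, 10.2 and 10.1 CPM in AL+PBS and 48.6, 29.7 and 76.8 CPM in AL+NaIO3, above every control (log2 2.34 ± 0.31, SE; adjusted p = 0.0672, edgeR), and it passed the threshold without that library. Among the other receptors for dying cells 4 of 10 tested were higher and none lower (median 0.96, or 0.10 with 2 higher without replicate 3). Trem2, the lipid receptor of microglia, was first, with 1.22 to 2.66 CPM in AL+PBS and 4.98 to 21.7 CPM in AL+NaIO3 (log2 2.69, adjusted p = 0.259, edgeR). Of 17 genes of the engulfment machinery 2 were higher and 1 lower (median 0.11, or -0.00 with 1 higher and 1 lower without replicate 3), led by Anxa2, an annexin of early phagosomes, at log2 1.39 (adjusted p = 0.224, edgeR). Of 7 genes of phagosome processing and receptor shedding 2 were higher, and none without replicate 3. The lysosomal protease Ctsd led them at log2 0.91 (adjusted p = 0.455, edgeR), and its groups overlapped.

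Against AL+NaIO3, the IF+NaIO3 mice again gave no call in these lists. At an unadjusted p under 0.05, 5 of the 7 ligands and bridges, 3 of the 10 receptors, 2 of the 17 machinery genes and 2 of the 7 phagosome genes were lower, and 1 machinery gene was higher, where 11.7% of all genes had such a p. Without AL+NaIO3 replicate 3 the lower genes numbered 2, 1, 1 and 1 and no gene was higher, beside 9.29% of all genes, and C1qa then passed the adjusted threshold. C1qa was 13.7, 7.22 and 7.55 CPM in IF+NaIO3 (log2 -2.46, adjusted p = 0.104, edgeR) and Trem2 0.99 to 2.21 CPM (log2 -2.74, adjusted p = 0.208, edgeR). Cav1, the caveolin of plasma membrane pits, led the phagosome list at log2 -0.58 (adjusted p = 0.369, edgeR). The median log2 fold changes of the 4 lists were -1.97, -0.76, -0.11 and -0.14 in that order, and -0.26, -0.15, -0.07 and -0.11 without AL+NaIO3 replicate 3, beside -0.01 and -0.00 for all genes.

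Markers of the remaining cell types differed in the AL+NaIO3 group as well, and their part in the members' values was not tested. Gfap, the intermediate filament of reactive glia, led the 6 Müller cell markers at log2 3.34 against AL+PBS (adjusted p = 0.0873, edgeR) and -3.71 in IF+NaIO3 against AL+NaIO3 (adjusted p = 0.0595, edgeR). In AL+NaIO3 against AL+PBS, 4 of 9 endothelial markers, 1 of 6 stromal markers and 2 of 6 Müller cell markers were higher at an unadjusted p under 0.05, 6 of 12 RPE markers and 2 of 4 tested lens markers were lower, and no photoreceptor, skeletal muscle or adipocyte marker was past that p. Without replicate 3 the higher markers were 2 endothelial, 0 stromal (median log2 -0.37), 2 Müller cell, 2 skeletal muscle and 1 photoreceptor, the lower ones 10 of 12 RPE and 3 of 5 lens markers. In IF+NaIO3 against AL+NaIO3, 3 of 6 Müller cell markers were lower and 1 photoreceptor marker was higher, both also without replicate 3, and no lens or adipocyte marker was past that p, while 0 skeletal muscle markers were lower with all libraries and 2 without replicate 3. Without that replicate Gfap and Vim passed the adjusted threshold in both NaIO3 comparisons. Lens markers summed to 180 CPM in AL+PBS replicate 2 and to at most 5.31 CPM elsewhere.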

How the data were processed

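RNA of eye cups (poly-A selected, 150-base reads) was processed by the authors, whose methods and processing notes name GRCm39, HISAT2, StringTie, DESeq2 and edgeR without versions; the counting tool, annotation and use of strand are not given in the sources used here. The deposited count table holds raw read counts per gene, and the deposited FPKM table holds values that the authors scaled by depth and gene length. The coordinates in both tables overlap GRCm38.p6 RefSeq genes for 99.9% of 21221 matched symbols, so positions are given on that build. The authors' table of comparisons holds fold changes and p-values and was not used. Samples were grouped by the labels. The methods for RNA extraction and qPCR state that both eye cups of a mouse were lysed together. The methods for sequencing name only eye cup tissue and do not say whether a library held 1 or both eyes of a mouse.

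Counts were tested in R 4.3.3 with edgeR 4.0.16 (glmQLFit, glmQLFTest, trimmed mean of M values scaling, filterByExpr), with 6 libraries per comparison and 12 for the interaction, and p-values adjusted over all genes tested. Alternatives were DESeq2 1.42.0, other scaling, filters, a replicate block, 12 libraries in 1 fit and each library left out. Ratios and correlations used scipy and numpy in Python. Counts were also simulated for AL+NaIO3 against AL+PBS (15455 genes). The edgeR fit called 57 of 98 genes changed by 1 and 85 of 97 changed by 2 on the log2 scale, with 4 false calls. The simulation gave genes of a similar level the same spread and held no outlying library like AL+NaIO3 replicate 3. These shares therefore need not hold for the real counts. No pair of replicates agreed within sampling noise. Intervals cover the model's error, with 3 mice per group limiting precision.

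Members and lists were chosen with earlier results of these data known. The genes named are the 9 members and in each list the gene of smallest p in each NaIO3 comparison. For each member the 2 genes most like it are also named. Rpe65, Best1, the pigment genes, Aif1, Lep, Tmem255b, Aqp4, Flt1, Glul and the RPE markers named between diets were named after their values were seen. So were the markers that passed without AL+NaIO3 replicate 3. The list counts without that library were likewise added after seeing the data. A change of sign was counted as a reversal only for a value past the threshold.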

Additional observations from a re-analysis of the deposited data

How the results depend on the processing

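The fold changes of the 9 members kept their direction in 571 of 585 alternative values over 45 results. The 14 changes of sign concerned values past no threshold, the largest being that of Mertk in IF+NaIO3 against AL+NaIO3. The count of members called was 0 in each of the 5 comparisons and rose in 3 settings: with DESeq2 to 2 in AL+NaIO3 against AL+PBS (Axl and Pros1, among 446 genes) and to 1 in IF+NaIO3 against AL+NaIO3 (Axl, among 499), and with all 12 libraries in 1 fit to 1 in AL+NaIO3 against AL+PBS (Pros1, among 177). The cause was not tested. Leaving out a library called 0 members in every comparison, as did upper quartile scaling, both other filters and no fold change threshold. Across all genes the count in AL+NaIO3 against AL+PBS ran from 0 to 90 over the left-out libraries and in IF+NaIO3 against AL+NaIO3 from 0 to 75, the upper values without AL+NaIO3 replicate 3. With a replicate block 0 members were called, and 28, 28, 5, 0 and 8 genes in all over the comparisons in the order given. The labels do not say whether equal replicate numbers pair the mice. Same-numbered samples deviated with correlations from -0.10 to 0.14, and samples of different number from -0.11 to 0.14. With 3 mice per group these values cannot settle whether mice were paired. The ratio of Mertk to the RPE markers moved without the pigment genes, to 1.66 in AL+NaIO3 against AL+PBS and to -0.92 in IF+NaIO3 against AL+NaIO3. With each group centred on its mean, the correlation with the RPE markers was 0.63 for Mertk and 0.80 for Itgb5, and with CPM on total counts 0.60 for Itgb5, all then past the threshold by Pearson's r. Spearman's rho of the centred values was 0.51 for Mertk (adjusted permutation p = 0.0931) and 0.62 for Itgb5 (adjusted permutation p = 0.0506), which did not pass. For Cd36 and the endothelial markers the centred r was 0.87 (adjusted permutation p = 0.0019) and rho 0.66 (adjusted permutation p = 0.0445), both past the threshold. Centred values within a group are not independent. In a setting added after seeing the data, without AL+NaIO3 replicate 3 as well, the centred r was 0.10 for Mertk, 0.09 for Itgb5, 0.51 for Axl and 0.27 for Cd36, none past the threshold. Without the 2 farthest libraries Cd36 and the endothelial markers gave 0.54, and without the 3 AL+NaIO3 libraries, a choice made after seeing the data, 0.46, with 0.77 for Axl and the macrophage markers, none of them past the threshold after adjustment. Counts behind a member were lowest for Cd36, at 93 to 751 per library.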

Other observations

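Among 15970 genes, the genes whose log2 CPM followed each member most closely over the 12 libraries were read off as a description. For Axl these were Ccnd2 and Gsdmd (Pearson's r = 0.98 for each), and for Pros1 Ifi207 and Slc43a3 (0.96 each). Itgav was closest to Abcg2 (0.98) and Lamp2 (0.97), Itgb5 to Nucb1 (0.97) and Loxl1 (0.96), and Cd36 to Ston1 and Tnmd (0.96 each). Mertk was closest to Tmem44 (0.92) and Aox1 (0.91), Tyro3 to Ppox (0.94) and Tnfrsf4 (0.88), Gas6 to Actr1b (0.95) and AI837181 (0.93), and Mfge8 to Pgp (0.98) and Rangap1 (0.96). Every pair shares its libraries, their depth and AL+NaIO3 replicate 3.

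Among the members themselves, the likeness of some pairs rested largely on that library. Axl and Cd36 had r = 0.90 over 12 libraries and 0.44 over the 11 others, Axl and Itgb5 0.80 and 0.04, Mertk and Axl 0.73 and 0.15, and Axl and Pros1 0.83 and 0.50. Gas6 and Mfge8, the most abundant ligands, kept r = 0.68 with it and 0.76 without it. Other pairs also became stronger without it, among them Gas6 and Itgav (-0.55 and -0.84) and Gas6 and Itgb5 (0.15 and 0.58).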
